A study of Mus musculus with 2 samples.

Results

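The oligonucleotide probes described here belong to 97 mouse genes whose probes disagreed by 2-fold or more on what a plaster cast did to the gene. They came from a comparison of the gastrocnemius, the main calf muscle, between male C57BL/6 mice aged 9 weeks with a hindlimb held in a plaster cast for 11 days and untreated males of the same strain and age. RNA of 6 mice per group, as the labels are read here, was pooled and hybridised to 1 one-colour array of 60-base probes per group. Each probe has a level, its log2 intensity minus the log2 of the array's 75th percentile, so 0 is that percentile. Its ratio is the level in cast minus the level in control, on the log2 scale. A level also depends on how well a probe binds, so bright and dim describe a probe's signal, and levels of different probes do not compare amounts of RNA. The genes were selected on those ratios: at least 2 probes well above background on both arrays, and a spread, the highest minus the lowest ratio, of 1 or more. Of 3535 genes with several such probes, 97 met the rule (2.74%), with 236 of the 7759 probes. Since each group is a single pool on a single array, nothing here measures the spread between mice and no test was made. The counts and values below describe these 2 pools.

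A gene can yield several RNAs, by starting at different promoters, by splicing, or by ending at different poly(A) sites. A 60-base probe reports only RNAs that hold its own letters, so probes of a gene need not read the same molecules, and a probe with common letters can also bind RNA of other genes. Skeletal muscle makes much use of such variants: contractile, splicing and metabolic genes each have muscle forms. The tissue label was checked on 9 markers of skeletal muscle, all well above background, with levels between 3.75 and 9.43 in control and between 3.62 and 9.39 in cast. Of 19 markers of endothelium, macrophages, fibroblasts, fat, tendon, nerve sheath and blood, 18 were well above background, with ratios from -1.76 to 1.26. Their part in the differences between probes was not tested. In bulk tissue, fewer cells of a type and less RNA per cell cannot be told apart.

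Stretches of 30 bases from some of the probes are shown first, 5′ to 3′ as on the RNA, in sets by what their letters hold. Whether the letters bear on the differences between probes was not tested. Coordinates are those of the array files, on mm9. No gene model of that build was used here, so exon and UTR limits are not given. Among probes of a gene whose coordinates overlapped, 180 pairs had letters that shifted exactly as their positions did, 56 did not, and 0 shifted the other way. The first set holds pairs of overlapping probes, with the letters common to both probes in capitals and some of the letters the partner lacks in lower case. The Aldh3a1 and 1700007K09Rik pairs disagreed on the cast, and the Clip4 pair is shown because it did not.
Aldh3a1 probe A_55_P2101216 (chr11:61031857-61031886, plus strand): cctccccCCTCTTGTTCTGCTGTTTGCTGA
Aldh3a1 probe A_55_P2065562 (chr11:61031864-61031920, plus strand, whole probe): GACCAATAAAAAAGCCTCTAAAGaaaagtc
1700007K09Rik probe A_55_P1980677 (chr7:138469632-138469661, minus strand): tgttaactccctgccACCCTGCCTTTGTAG
1700007K09Rik probe A_51_P300395 (chr7:138469611-138469640, minus strand): CCTTTGTAGCATAAGggaaggactctgaca
Clip4 probe A_55_P1960145 (chr17:72199440-72199469, plus strand): gtgtgTTGAGTTCTTCTTCCCTCATTTAAA
Clip4 probe A_55_P2142033 (chr17:72199475-72199504, plus strand): AATTAAACATGTCACAAGTGGCTAAaagca

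The second set holds probes with a simple repeat, which covers from 20 to 44 of their 60 bases. Capitals mark the longest run in which a unit of 1 to 3 bases follows itself. The Rhox8 and Gcm1 probes had 43 bases in a row in common, although they are placed on different chromosomes.
Rhox8 probe A_55_P1981829 (chrX:35231485-35231514, minus strand): GAAGAAGAAGAAGAAGAAGAAGAAGAAGAA
Gcm1 probe A_55_P2114697 (chr7:123731590-123731619, minus strand): AAGAAGAAGAAGAAGAAGAAGAAGAAGAAG
Gm2488 probe A_55_P2068247 (chr15:13245868-13245897, minus strand): GAAGAAGAAGAAGAAGAAGAAGAcagaaga
Gm2488 probe A_55_P2068248 (chr11:56072596-56072625, minus strand): AAGAAGAAGAAGAAGAAGAAGAAGAAGAAG
Trp63 probe A_55_P2161055 (chr16:25871173-25871202, plus strand): tacagGCAGCAGCAGCAGCAGCAGCAccag
Hexim2 probe A_55_P2004806 (chr11:103001100-103001129, plus strand): acacgCACACACACACACACACACAtgtat
The third set has no long simple repeat. Capitals mark the longest part covered by runs of 20 or more bases, on either strand, that probes named for other genes also hold.
Synrg probe A_55_P1968606 (chr11:83855522-83855551, plus strand): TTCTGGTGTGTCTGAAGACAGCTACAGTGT
Cxcl11 probe A_55_P2160387 (chr5:92788584-92788613, minus strand): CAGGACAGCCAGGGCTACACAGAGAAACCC
Slc35e1 probe A_55_P2123220 (chr8:75005941-75005970, minus strand): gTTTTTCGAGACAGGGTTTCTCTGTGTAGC
The Cxcl11 and Slc35e1 probes shared a run of 18 bases on opposite strands.

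The last set holds some of the probes with a poly(A) signal, AATAAA or ATTAAA, in capitals. These are the letters that precede the cut at which an RNA gets its poly(A) tail, and the probes are those whose ratio differed from that of another probe upstream or downstream on the same gene.
Arrdc4 probe A_55_P2101191 (chr7:75886496-75886525, minus strand): ccaagcttcttgaatcATTAAAaatacata
Arrdc4 probe A_51_P111612 (chr7:75881935-75881964, minus strand): ccaaggggaaAATAAAgattgtattttgta
Hspa4 probe A_55_P2054157 (chr11:53075085-53075114, minus strand): attccaacacttgtttatATTAAAacagac
Ddx46 probe A_52_P106739 (chr13:55780443-55780472, plus strand): actgaatgctgtAATAAAgtctgtcaggca
Gspt1 probe A_55_P2170963 (chr16:11220505-11220534, minus strand): gttaaaaagacaactaccatattAATAAAa
Gspt1 probe A_52_P81783 (chr16:11216386-11216415, minus strand): agaactggagagATTAAAgattattctgtc
Araf probe A_55_P2049854 (chrX:20429987-20430016, plus strand): attatgatatgtAATAAAaagtcatatctt
Rab7l1 probe A_66_P112164 (chr1:133769431-133769460, plus strand): tttatgaaaagaATTAAAagtgagcacttg
Ggt6 probe A_51_P440238 (chr11:72251865-72251894, plus strand): atttctgacttttctatcaAATAAAgacca
Ahnak probe A_55_P2153621 (chr19:9151374-9151403, plus strand): tcttacctacccAATAAActtttgtcatgc
Ube2l3 probe A_55_P2120278 (chr16:17152113-17152142, minus strand): cattctgtccttAATAAAaatgttctcaga
AATAAA stood on the RNA's strand in 31 of the 236 probes (13.1%) and in 14.4% of all 7759 probes of genes with several probes. On the other strand it stood in 4 (1.69%) and in 3.57%. A match says only that the letters are in the probe.

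The 97 genes had a median spread of 1.23, against 0.18 over all 3535 genes, a gap that the selection itself fixes. Of them, 63 had 2 measured probes, 28 had 3 and 6 had 4 or more. In 27 genes 1 probe was 2-fold or more higher in cast while the lowest probe was under 2-fold. In 27 others at least 1 probe was 2-fold or more lower while the highest was under 2-fold. A probe past 2-fold and another not were thus seen in 54 of the 97 (55.7%), against 4.19% of all genes with several probes. In 42 genes no probe passed 2-fold and the extremes lay on opposite sides of 0. Both extremes were 2-fold or more higher in 1 gene, Aldh3a1. In 0 genes did probes pass 2-fold in opposite directions. Ratios on both sides of 0 were seen in 68 of the 97 genes (70.1%) and in 27.2% of all genes with several probes. Single probes were 2-fold or more higher in 29 of 236 (12.3%, against 1.55% of all such probes) and 2-fold or more lower in 28 (11.9%, against 1.92%). The ratios chose the genes, so these shares are a description.

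The scanner software gives each intensity an error, which carried over to the spread of a gene had a median of 0.30 over the 97 genes. The spread was over 2 times that error in all 97 and over 3 times in 89. Over all 3535 genes with several probes it was over 3 times in 115 (3.25%). The selection on a spread of 1 or more largely fixes the counts for the members, so they are a description. Over 259 probes printed in several spots, the spot-to-spot SD of a single probe's ratio had a median of 0.13 (95th percentile 0.39) below the median level and of 0.08 (0.14) at or above it. These figures cover the array measurement alone, not mice. The genes just inside the threshold were Elavl1 at 1.01, and Usf2 and Sh3glb1, whose spreads round to 1. Just outside it were 2700060E02Rik at 0.998, Mrps14 at 0.994 and H13 at 0.985. Those differences are far under the error of a spread, so membership near the threshold is not fixed by these arrays. Another background correction (normexp on the mean signal, which damps dim probes) left 41 genes past the threshold, 40 of them among the 97. Of the 40 members named by rule, those below 1 under it were 1700007K09Rik, Ank3, Brwd1, Col9a1, Elavl1, Kcne1l, Mbnl2, Ncam1, Nf2, Ogdh, Pard3, Sh3glb1, Slc35e1 and Usf2.

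Overlapping probes can have nearly all of their letters in common or only some. As given above, letters did not shift exactly with positions in 56 overlapping pairs. Over all genes with several probes, 322 pairs overlapped, their ratios differed by a median of 0.07, and 2 pairs (0.621%) differed by 1 or more. For pairs that lay apart the share past 1 was 1.35% under 1 kb, 2.30% from 1 to 5 kb, 3.92% from 5 to 20 kb and 3.33% at 20 kb or more. It was 2.90% for pairs on different chromosomes or strands. One of the 2 exceptions was Aldh3a1, an aldehyde dehydrogenase of the cytosol best known from cornea and stomach. Its probes are 7 bases apart and share 53 of 60 letters, as shown above. The upstream probe stood at -0.81 in control and 1.95 in cast, a ratio of 2.77. The downstream probe, of which 57 bases are placed on the genome, stood at -2.93 in control and 1.77 in cast, a ratio of 4.69. Both probes were more than 2-fold higher in cast, by different amounts. The gap was 1.93 ± 0.30 (± error from the scanner software, 1 array per group), and 1.20 under normexp.

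The other exception was 1700007K09Rik, named Fam24b in the current reference table, with 21 letters in common between 2 of its 3 probes. The probe at chr7:138469626-138469685 stood at -0.19 in control and -0.68 in cast, and its ratio was -0.49. The next one downstream, at chr7:138469587-138469646, stood at -4.50 in control and -3.12 in cast, a ratio of 1.38, and the one upstream of both had 0.64. Both of those probes were dim, and the normexp correction took the spread from 1.87 to 0.66. The other 6 overlapping pairs in the set lay closer. The Clip4 pair shown above, 5 bases apart, differed by 0.05, a pair of Ola1 by 0.04 and a pair of Pdhb by 0.0055, while the 3 pairs of Gm5595 differed by 0.0048, 0.31 and 0.31. None of the 231 overlapping pairs with both probes at or above the median level of -0.45 differed by 1.

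In 34 of the 97 genes (35.1%) the extreme probes were designed to different accessions, most of them numbered RefSeq transcript variants, against 16.1% of all genes with several probes. Over all pairs of probes, 4.74% of 949 pairs under different accessions differed by 1 or more, and 1.81% of 4134 pairs under the same one. Arrdc4, an alpha-arrestin that guides membrane proteins to ubiquitin ligases, had the largest such gap. The probe of variant 2, at chr7:75886496-75886555, passed the array's 75th percentile in cast alone, with -0.77 in control and 2.30 in cast, a ratio of 3.07. The probe of variant 1, 4591 bases downstream, stood at -2.43 in control and -1.93 in cast, a ratio of 0.50. That second probe was printed in 10 spots, whose levels ran from -2.51 to -2.31 in control and from -2.09 to -1.46 in cast, so the 2 arrays did not overlap. The gap of 2.56 ± 0.22 kept its size under normexp (2.48). Both probes hold a poly(A) signal, as printed above.

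Gnas encodes the stimulatory G protein alpha subunit, and its complex locus has several promoters. Its probe of variant 4 at chr2:174163501-174163560 was dim, with -3.74 in control and -1.52 in cast, a ratio of 2.23. The probe of variant 8, 8432 bases downstream, was among the brightest of the set at 6.55 in control and 6.33 in cast, and its ratio was -0.22. A value for Gnas taken from its bright probe would therefore show almost no difference. Trp63, a p53 family transcription factor of squamous epithelia, had -2.26 in control and -0.42 in cast for variant 4, a ratio of 1.85. Its probe of variant 3, which is the one with the GCA repeat shown above, had 2.96 in control and 2.76 in cast, a ratio of -0.20. The 4 probes of other genes that share 20 or more bases with the Trp63 repeat probe had ratios from -0.24 to -0.03. Under normexp the Gnas gap was 1.21 in place of 2.45, and that of Trp63 1.36 in place of 2.04.

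Araf, a kinase of the Raf family upstream of MEK, split by variant. The probe of variant 1 at chrX:20437462-20437521 stood at 2.27 in control and 3.68 in cast, a ratio of 1.41. Both probes of variant 2, which lie over 7 kb upstream, had ratios of -0.05 and -0.15. Those probes had levels of 0.26 in control and 0.21 in cast and of 3.27 in control and 3.12 in cast. Ahnak, a giant scaffold protein at the muscle membrane, had 4 probes. Its variant 3 probe at chr19:9151349-9151408, with the AATAAA shown above, stood at 2.05 in control and 3.74 in cast, a ratio of 1.69. The other 3 had ratios of 0.62, 0.61 and 0.43. All 4 were higher in cast, but only the variant 3 probe among these passed 2-fold.

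Ncam1, the neural cell adhesion molecule, is a surface protein that denervated muscle fibres are known to gain. Its 3 probes formed a series along the gene: 1.32 for the probe nearest the 5′ end, 0.62 for the middle one, both of variant 2, and -0.04 for the variant 3 probe at the 3′ end. The levels were -2.52 in control and -1.20 in cast for the first and -1.44 in control and -1.48 in cast for the last, 40862 bases away. All 3 probes lay below -1 on both arrays, and normexp reduced the spread from 1.36 to 0.83. Ank3, ankyrin-G, which anchors sodium channels and costamere proteins, had 0.74 for the middle of its 3 probes and -0.25 and -0.34 for those on either side. The probes at 0.74 and -0.34 were both of variant 2. In 29 of the 34 members with 3 or more probes the higher and lower probes lay in unbroken groups along the strand, and Ank3 was not among them. Of the 34, 28 had 3 probes, where the groups are unbroken unless the probe that stands apart is the middle one. The same share over all genes with several probes was not computed.

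Myl1 encodes the fast myosin light chains 1f and 3f, which are made from separate promoters of 1 gene. The probe listed for variant 1f, at chr1:66970948-66971007, was the brightest of all 236, with 8.52 in control and 8.81 in cast, a ratio of 0.29. The probe of variant 3f, whose 60 bases span 4248 bases of the genome and so cross a gap such as an intron leaves, stood at 7.79 in control and 7.06 in cast, a ratio of -0.73. Both probes share a listed accession, so the first probe is not specific to 1f. The gap of 1.03 ± 0.29 kept its size under normexp (1.01). Kif1b, a kinesin motor of organelle transport, gave a split between probes of similar brightness. The variant 2 probe went from 3.31 in control to 4.08 in cast, a ratio of 0.77. The variant 1 probe, 57981 bases upstream, went from 3.85 to 3.53, a ratio of -0.31.

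Mbnl2, a muscleblind splicing regulator, had a ratio of 0.86 at its 5′ probe, with 0.29 in control and 1.15 in cast. Its 2 downstream probes, over 20 kb away and under the same accession, had -0.14 and -0.01. Ola1, an Obg-like ATPase, had a variant 2 probe with -0.92 in control and 0.26 in cast, a ratio of 1.17, while both variant 1 probes, which were brighter, had -0.03 and -0.07. Clip4, a linker of microtubules, had 5 probes in 2 blocks. The variant 2 pair had 0.37 and 0.32, and the 3 variant 1 probes farther downstream had -0.66, -0.71 and -0.74. The range within each block was at most 0.09, and the gap between blocks was 0.98.

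Svil, supervillin, an actin-binding protein of costameres, had 3 probes on chromosome 18 with ratios of 0.28, -0.28 and -1.18. The last and most 5′ of these stood at 1.16 in control and -0.01 in cast. The brightest, of variant 1, stood at 4.92 in control and 4.64 in cast. Both extremes of Svil were probes of variant 2, so its spread lies within 1 accession. Brwd1, a bromodomain chromatin protein, had 4 probes under 4 accessions and ratios of 0.42, -0.12, -0.40 and -0.74, with no clear break. Pard3, a cell polarity scaffold, had 0.47 and 0.36 for its 2 variant 3 probes and -0.20 and -0.54 for those of variants 4 and 1, far upstream. The uncharacterised gene 2310002L09Rik had a bright probe of variant 1 at 4.43 in control and 4.53 in cast, a ratio of 0.10, and one of variant 2 at 3.43 in control and 2.38 in cast, a ratio of -1.05.

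Further variant splits were chosen after their values were seen. Pdhb, a subunit of pyruvate dehydrogenase, had 2 bright probes with ratios of -0.27 and -0.28. A dimmer one, designed to a cDNA clone 5102 bases upstream, had 0.87. After scaling the bright probes were slightly lower in cast and the clone's probe was higher. Before scaling the intensities of the bright probes were slightly higher in cast, at 23508.5 in control and 24595.4 in cast and at 10966.3 and 11429.3. Hbp1, a repressor of cell cycle genes, stood at 2.78 in control and 2.81 in cast for variant 1 and at -3.24 in control and -2.00 in cast for variant 2.

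In the other 63 genes the extreme probes carried 1 accession, so the labels give no variant to tell them apart. The largest spread of all was that of Rab7l1, now Rab29, a small GTPase of the Golgi and lysosome. Its probe at chr1:133769161-133769220 stood at 0.20 in control and -0.12 in cast, a ratio of -0.32. The probe 240 bases downstream, with the ATTAAA shown above, stood at 0.54 in control and -2.60 in cast, a ratio of -3.14. After scaling both probes were lower in cast, but only the downstream one of the pair passed 2-fold. Before scaling the upstream probe was nearly equal, with an intensity of 444 in control and 448 in cast. The spread was 2.82 ± 0.30, and 2.12 under normexp. Ggt6, a gamma-glutamyltransferase family member, went the other way. Its 3′ probe, with AATAAA, stood at -3.25 in control and -0.13 in cast, a ratio of 3.12, and its probe 680 bases upstream stayed dim at -3.50 in control and -3.18 in cast, a ratio of 0.32. Under normexp that gap was 1.94 in place of 2.79.

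Hspa4, a cytosolic chaperone of the Hsp110 family, was split between a bright upstream probe and a dimmer pair downstream. The upstream probe at chr11:53075085-53075144, which holds a poly(A) signal, stood at 3.52 in control and 4.16 in cast, a ratio of 0.64. The other probes, the farther one 1738 bases downstream, stood at -1.24 in control and -2.21 in cast and at 1.19 in control and 0.02 in cast, with ratios of -0.97 and -1.17. Both were lower in cast, and the upstream probe was higher. Ddx46, an RNA helicase of the spliceosome, also had its higher ratio upstream, here with both probes higher in cast: -0.14 in control and 2.07 in cast for the upstream probe with AATAAA, a ratio of 2.21, and 1.32 in control and 1.77 in cast for the one 2038 bases downstream, a ratio of 0.45. Gspt1, the release factor eRF3 of translation termination, had poly(A) signals in both probes. The upstream one had 0.36, from 2.25 to 2.61, and the one 4120 bases downstream -1.18, from 0.83 to -0.35.

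Cfl2, the muscle form of cofilin, which severs actin filaments, had 2 bright probes 1068 bases apart on chromosome 12. The upstream probe at chr12:55961445-55961504 stood at 4.58 in control and 5.38 in cast, a ratio of 0.80. The downstream probe stood at 3.27 in control and 2.72 in cast, a ratio of -0.55. Neither passed 2-fold, and they pointed in opposite directions. Ube2l3, a ubiquitin-conjugating enzyme that feeds HECT and RBR ligases, had 4 probes, all with levels of 2.92 or more in control. Its 2 upstream probes had ratios of 0.96 and 0.90, and the 2 downstream probes -0.28 and -0.29. The pairs differed by 0.06 and 0.0094 within themselves and by 1.18 between them. The most 3′ probe, with the AATAAA shown above, was the brightest at 5.18 in control and 4.90 in cast. Tnks2, a tankyrase, had 0.88 upstream and -0.50 at a brighter probe 1605 bases downstream. Ogdh, the E1 subunit of oxoglutarate dehydrogenase, had 2 bright upstream probes at -0.18 and -0.21 and a far dimmer 3′ probe, from -0.90 to -2.10, at -1.20.

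In all, 6 members had a probe that spans more than 65 bases of the genome and so crosses a gap, as where an intron is removed. Nf2, which encodes merlin, a tumour suppressor of the Hippo pathway, had the largest spread. Its crossing probe at chr11:4682326-4684468 stood at -3.86 in control and -1.08 in cast, a ratio of 2.78. The probe at the 3′ end stood at 0.79 in control and 1.57 in cast, a ratio of 0.78, and normexp cut the gap from 2.01 to 0.82. Sec63, part of the protein translocation machinery of the endoplasmic reticulum, is the best measured of them and was chosen after its values were seen. Its crossing probe was printed in 10 spots, whose levels ran from -1.21 to -1.03 in control and from 0.27 to 0.42 in cast, a ratio of 1.47. Its 3′ probe had 0.13. In Nf2, Sec63, Taok2 and Yipf6 the crossing probe had the higher ratio, and in Ssbp1 as well, at 0.0035 against -0.33 and -1.21. In Myl1 it had the lower one. Taok2, Yipf6 and Ssbp1 were likewise named after their values were seen. Such probes made up 2.54% of the members' probes and 5.49% of all probes of genes with several.

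Dim members completed the largest spreads. Pes1, a ribosome biogenesis factor, had 0.14 upstream and -1.64 at the probe 6645 bases downstream, whose level went from -0.30 to -1.94. Kcne1l, a potassium channel beta subunit on the X chromosome, had 1.52 at the 3′ probe, from -4.11 to -2.59, and -0.21 at the other. Col9a1, a cartilage collagen chain, had 0.29 and -1.33, the latter from -1.70 to -3.02. The normexp correction took Kcne1l to 0.65, Col9a1 to 0.68 and Pes1 to 1.30. Near the threshold, Elavl1, the RNA-binding protein HuR, had 0.60 and -0.41. Usf2, a helix-loop-helix transcription factor, had 0.98 and -0.02. Sh3glb1, endophilin B of mitochondria and autophagy, had 0.72 at the bright upstream probe and -0.29 at the dim downstream one.

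The repeat and shared-letter probes printed above were brighter than the other probes of their genes in most cases. For Rhox8, a reproductive homeobox gene, the GAA repeat probe stood at 4.69 in control and 4.80 in cast, a ratio of 0.11. The other Rhox8 probe, which has no such repeat, stood at 0.04 in control and -1.21 in cast, a ratio of -1.25. For Gcm1, a placental transcription factor, the GAA probe stood at 4.22 in control and 4.97 in cast, a ratio of 0.75, and its other probes had 0.02 and -0.30. The Gcm1 probe at 0.02 also holds a GAA repeat, of 19 bases, and is listed under Nhlh2, Pigr and Rhox8 too. In the Gcm1 probe at -0.30, runs shared with 7 probes of other names cover 51 of 60 bases. The array held 41 probes of other names that share 20 or more bases with the Rhox8 probe. All 41 were well above background on both arrays, at a median level of 3.96 and with ratios from -0.39 to 1.27. The Gcm1 probes are placed on chromosomes 7 and 9. Both Gm2488 probes, with ratios of 1.27 and 0.24, hold GAA repeats and are placed on chromosomes 15 and 11. For Gm2488, the GAA probes and the other Gcm1 probes the value cannot be tied to 1 locus. The other Rhox8 probe shares no run of 20 bases with probes of other names. Rhox8, Gcm1 and Hexim2 were chosen after their values were seen.

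Hexim2, an inhibitor of the elongation factor P-TEFb, had a CA repeat probe at 4.35 in control and 3.90 in cast, a ratio of -0.45. Its upstream and downstream neighbours stood at -1.34 in control and -0.33 in cast and -3.20 in control and -3.05 in cast, with ratios of 1.01 and 0.14. The CA probe shares 20 or more bases with 73 probes of other names, whose median ratio was -0.07 and whose median level was 3.80. Synrg, a partner of the clathrin adaptor AP-1, had a most 3′ probe of extreme brightness, 8.28 in control and 8.18 in cast, a ratio of -0.10. That probe is listed also under accessions of Phkg1, the muscle gamma subunit of phosphorylase kinase, and Golm2, and it shares letters with 19 probes of other names, the 18 measured ones at a median level of 7.34. The 2 probes named for Phkg1 share at most 7 bases in a row with it and both had ratios of -0.45. The remaining Synrg probes stood at 1.25 in control and 2.51 in cast and 0.67 in control and 0.93 in cast, with ratios of 1.26 and 0.25.

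Cxcl11, an interferon-induced chemokine, had probes only 73 bases apart. The downstream probe, shown above, stood at 7.26 in control and 8.24 in cast, a ratio of 0.98, and the upstream one at 1.82 in control and 1.67 in cast, a ratio of -0.15. The 7 probes of other names that share 20 or more bases with the first reached levels up to 8.99, and their ratios ran from -0.77 to -0.13, all below that of the Cxcl11 probe. Such shared runs cover 31 of the 60 bases of the downstream probe, so its value cannot be tied to Cxcl11 alone. The source of its signal was not tested. Slc35e1, a sugar-phosphate transporter family member, had -0.48 at its shared-letter probe and 0.54 at the other, with levels between -0.30 and 0.53. The same limit holds for its shared-letter probe. Gm5595, a zinc finger gene now named Zfp975, had 5 probes. The 4 with levels above -0.5 had ratios of -0.52, -0.91, -1.22 and -1.22, and the dim most 5′ one had 0.16. Gm3806, a predicted gene, had -0.23 and -1.48. Runs of 20 or more bases shared with the Gm5595 probe at -0.52 cover 30 bases of the Gm3806 probe at -0.23. The Gm5595 probe at 0.16 and 1 of those at -1.22 also share such runs with probes of other names. Probes that share 20 bases with probes of other genes were as common here as elsewhere, at 7.20% of the members' probes against 7.19%. Runs of a repeat of 12 or more bases stood in 9 of the 236 probes (3.81%) and in 1.29% of all probes.

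The position of a probe on its strand was no part of the selection, but the ratios compared are those that chose the genes, so the order is a description. In 95 genes the extreme probes lay on 1 strand within 2 Mb, a median of 4120 bases apart, with 17 under 1 kb. The probe nearer the 3′ end had the higher ratio in 31 of them (32.6%), and the 5′ probe in 64. Over all genes with several probes the share was 49.0%. It was 53.1% where the spread was under 0.25, 46.9% from 0.25 to 0.5, and 36.2% from 0.5 to 1. The 3′ probe was 2-fold or more lower in 23 of the 95 genes and the 5′ probe in 4, while 2-fold or more higher were 11 and 17. These 2-fold counts cover only the members, whose ratios chose them, and have no counterpart here over all genes. The share was 32.8% of the 61 ordered genes with 1 accession and 32.4% of the 34 with several. The lean to the 5′ probe was not seen among bright probes, though the genes are few. With probes below the median level of either array left out, 20 genes met the rule. The 3′ probe had the higher ratio in 10 of 19 that could be ordered (52.6%). Under normexp it was 15 of 39 (38.5%). A poly(A) signal, AATAAA or ATTAAA, stood in the 5′ extreme probe of 13 of the 95 genes (13.7%), against 10.4%, 8.02% and 14.1% in the 3 lower classes of spread, from the smallest up. In the 3′ extreme probe it stood in 26 (27.4%), against 29.3%, 26.2% and 19.0%.

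The members held dimmer probes than the rest. The dimmest probe of a member had a median level of -2.16, against -1.54 over all genes with several probes. Every probe was at or above the median level in 19 of the 97 (19.6%), against 35.4%. In 4 equal bins of the dimmest probe's level, members made up 3.62%, 3.62%, 2.38% and 1.36% of the genes, from dim to bright. They made up 2.12% of genes with 2 probes, 5.81% with 3 and 6.98% with 4 or more. Of the 2 extremes the brighter had the larger absolute ratio in 42 genes (43.3%), against 46.8%. Taking each gene's brightest probe put 23 of the 97 past 2-fold, and taking the mean of its probes 11, with 7 in both and 36 genes of opposite sign. The selection asked for probes that differ, and the sign of a small ratio depends on the scaling. These counts describe the members only and were not made over all genes. Of the 6 members with 4 or more probes, divided at the largest gap between ratios, 3 (Ube2l3, Clip4 and Pard3) fell into groups of 2 or more and 3 had a single probe apart. In the 28 members with 3 probes such a division always leaves 1 probe apart.

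Of 353 genes in 9 lists drawn up for muscle with earlier results known, 107 had several measured probes, and 8 of those (7.48%) were members, against 2.74% of all genes with several probes. They were Arrdc4 and Hspa4 of 12 stress and heat shock genes with several probes, Aldh3a1 and Ogdh of 20 genes of energy metabolism, Myl1 of 23 sarcomere and costamere genes, Mbnl2 of 22 muscle regulators, Ncam1 of 4 denervation genes and Ank3 of 11 ion channel and coupling genes. Protein breakdown (7), matrix and growth factors (4) and markers of other cell types (4) had 0. The median spread was 0.46 in both the stress and the denervation list, 0.36 in protein breakdown and 0.22 in the sarcomere list. It was between 0.10 and 0.17 in the other 5, against 0.18 over all. The remaining 57 members, not named by the rule, had spreads from 1.01 to 1.59 and a median probe level of -1.73. Of these, 38 had ratios on both sides of 0, 13 had a probe 2-fold or more higher and 17 a probe 2-fold or more lower. One pair among them, chosen after its values were seen, is adjacent on chromosome 1. The ratios of Elk4, an ETS transcription factor, were 0.07, 1.15 and 0.84 from 5′ to 3′ on the plus strand. Those of Mfsd4, now Mfsd4a, a transporter family member on the minus strand, were -0.16, -0.27 and 0.92. Their 3′ probes, both higher in cast, face each other with 1342 bases between. Of 242 array probes of the 97 genes, the 6 beyond the 236 were well above background on neither array.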

How the data were processed

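Expression was measured in 2 samples, 1 control and 1 cast pool, each on 1 one-colour Agilent array of the same slide. The authors extracted spot intensities using Feature Extraction 9.5 from Agilent, a tool the submitters' processing notes name. Per the file headers, the deposited processed intensity is background-subtracted and detrended within the array but not normalized between arrays. Here it was log2-transformed, spots of a probe were averaged, spots flagged as non-uniform (2 in control, 9 in cast) were left out, and each array's 75th percentile (385 and 486) was subtracted. A probe counted as measured with over 0.5 of its spots well above background on both arrays: 22032 of 39429 probes. No gene spot was saturated. The number of arrays limits the precision, and no test was possible.

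Genes are those named on the array, where the name differs from the accession. Of the 97 members, 91 had an accession in the reference gene table (GRCm38, names only), and 13 have another current name. The members, the gene lists, the tests and the alternatives were chosen with earlier results of these data known. Genes were named by rule: members with every probe at or above the median level, by spread (up to 20, of which 19 existed), the 12 largest spreads among the rest, members with a probe at 2-fold or more and another at 0.5 or more in the opposite direction, members with 4 or more probes, members in the lists, and 3 genes on either side of the threshold. The method was tested on simulated data. Normexp, quantile and loess alternatives used limma 3.58.1 in R 4.3.3, and the rest Python 3.11.15. The deposited table of the whole series, an intensity scaled by the authors and partly rounded, served as an alternative.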

Additional observations from a re-analysis of the deposited data

How the results depend on the processing

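No paired analysis was possible because each group is 1 pooled array, and no replicate could be left out. A constant scaling (median, none or spike-in controls) moves every ratio of an array alike, so it kept the same 97 genes, while genes with ratios on both sides of 0 went from 68 to 67, 54 and 53. The median ratio over all measured probes that carry a gene name was -0.02 as reported, 0.31 unscaled and 0.32 against the spike-ins. The direction of a small ratio thus depends on the scaling and the gap between probes does not. Quantile normalization gave 95 genes (92 in common), loess 96 (90 in common) and the authors' deposited values 99 (95 in common). Without population outlier spots there were 92. The median of spots, or every spot well above background, gave the same 97. Grouping by the symbol of the accession also gave 97, with 85 under the same name. Asking for probes within 2 Mb on 1 strand gave 95.

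Background correction by normexp on the mean signal gave 41 genes (40 in common), of which 27 had ratios on both sides of 0, 26 had 1 probe past 2-fold and another not, 23 had the larger ratio at the brighter probe and 15 of 39 had the higher ratio at the 3′ probe. With dim probes left out those values were 20 (all among the 97), 16, 10, 6 and 10. Thresholds of 0.8 and 1.5 gave 182 and 21 genes. Of the spreads of named genes under the alternatives, 472 moved by less than the error and 15, all under normexp, moved by more and ended between 0.38 and 2.12. The median spread of the 97 was 0.96 under normexp. Both alternatives that gave the fewest genes at the threshold of 1 act on dim probes.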
